A study of Marchantia polymorpha with 12 samples.

Results

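MpCYP74N1 (Mp3g21350) and MpCYP74N2 (Mp5g16260) are the CYP74 genes of the liverwort Marchantia polymorpha. Both were chosen by name, as the genes whose symbol carries CYP74. They are 2 of the 19421 genes in the deposited tables. The reference gene table also lists them under the synonyms MpAOS1 and MpAOS2, for allene oxide synthase. Each had 1 transcript in the files, of 2761 bases for MpCYP74N1 and 1650 bases for MpCYP74N2, and the gene IDs place them on chromosomes 3 and 5.

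CYP74 enzymes are atypical cytochromes P450 that use neither molecular oxygen nor an electron donor and instead rearrange fatty acid hydroperoxides made by lipoxygenases. An allene oxide synthase turns such a hydroperoxide into an unstable allene oxide, which allene oxide cyclase closes to the oxylipin OPDA. In Marchantia, forms of dinor-OPDA, rather than jasmonoyl-isoleucine as in flowering plants, bind the receptor COI1 and release transcription factors from the JAZ repressor.

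RNA was sequenced from 14-day-old thalli, the flat plant body, of Tak-1, a male laboratory accession, and of the line labelled Mperf15ko. Thalli were collected intact, called control here, or 1 h after wounding of their blades, and each of the 4 groups had 3 libraries. The labels describe each replicate as independent and made of 12 plants. They do not describe the lesion of Mperf15ko or how many lines it stands for, so a difference between the genotypes compares these plants as labelled.

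Each library held 17.2 to 30.4 M estimated reads. Libraries of 1 group had a correlation of log2 CPM of at least 0.994, and no pair within a group agreed within sampling noise. Tak-1 wounded replicate 1 correlated with its group at 0.9954 and 0.9955, but this library stood apart from the others in its most abundant genes. Its 10 most abundant genes took 10.9% of all reads, a share that was 5.50% to 8.60% elsewhere. MpERF15, after which the mutant line is named, was at 20.1, 34.7 and 34.6 TPM (a level scaled for transcript length and library size) in wounded Tak-1 and at 17.1, 20.2 and 40.6 TPM in wounded Mperf15ko. These levels overlapped, with a log2 difference of -0.20 (SE 0.30, adjusted p = 0.66 by edgeR). Reads were counted over the whole transcript, so they do not check the mutant label.

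MpCYP74N2 was the more abundant CYP74 transcript in each of the 12 libraries. In control thalli of Tak-1 its level was 77.9, 74.2 and 60.2 TPM in replicates 1 to 3, against 17.2, 20.3 and 17.9 TPM for MpCYP74N1. In control thalli of Mperf15ko it was 68.2, 49.7 and 59.9 TPM, against 15.8, 16.2 and 17.7 TPM. The levels of both genes overlapped between the genotypes in intact plants.

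After wounding, MpCYP74N2 was at 102, 190.1 and 181 TPM in Tak-1 and at 79.5, 76.0 and 128 TPM in Mperf15ko. Every wounded library of a genotype lay above all controls of that genotype. Replicate 1 was the low library in wounded Tak-1, and replicate 3 the high one in wounded Mperf15ko. MpCYP74N1 was at 16.5, 15.1 and 17.7 TPM in wounded Tak-1 and at 13.5, 14.6 and 10.8 TPM in wounded Mperf15ko. Wounded and control levels of MpCYP74N1 overlapped in Tak-1, while in Mperf15ko all wounded libraries lay below all controls.

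**Figure D1:**
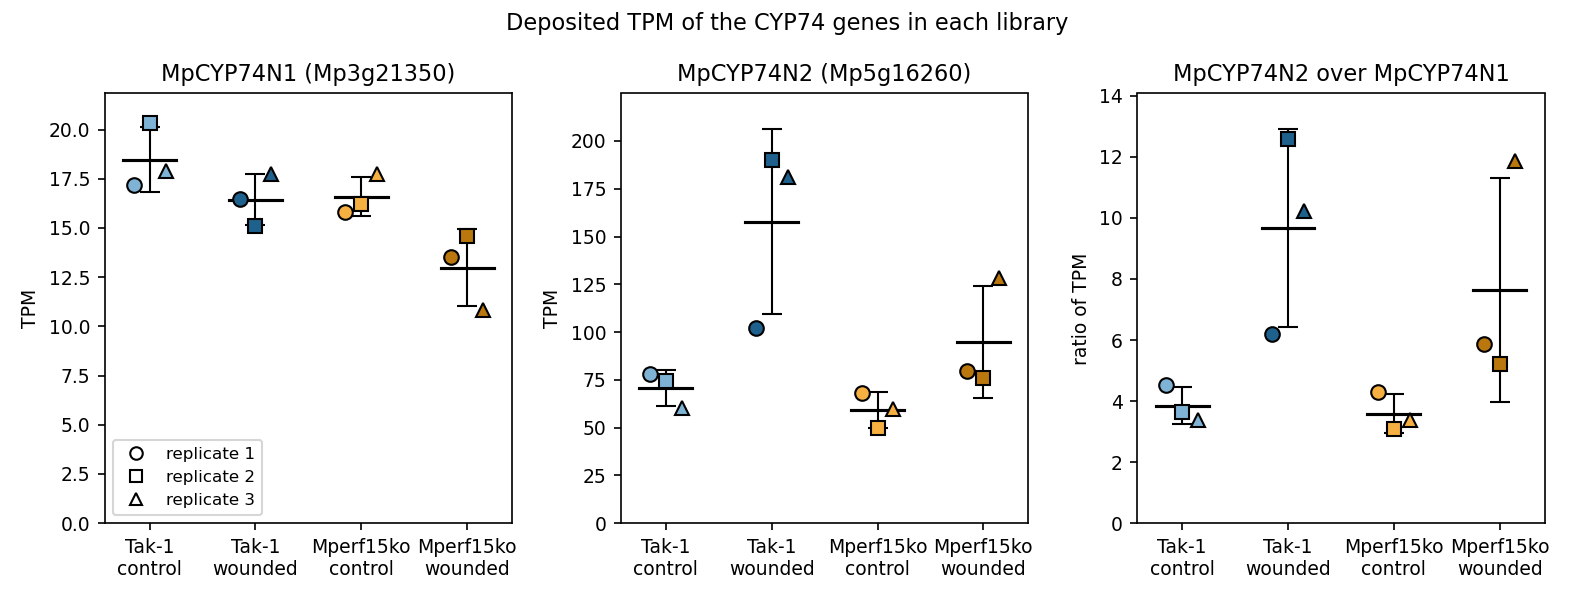
Deposited TPM of MpCYP74N1 and MpCYP74N2 and the ratio of the 2 levels (vertical axes, each from 0) in the 4 groups, with a symbol per library, the mean as a line and the SD of 3 libraries as a bar. MpCYP74N2 lies between 76.0 and 190.1 TPM in wounded thalli and between 49.7 and 77.9 TPM in controls, while MpCYP74N1 stays between 10.8 and 20.3 TPM.

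The order of the group means for MpCYP74N2 was Mperf15ko control (59.3 ± 9.26 TPM, SD, n = 3), Tak-1 control (70.8 ± 9.32 TPM), Mperf15ko wounded (94.6 ± 29.3 TPM) and Tak-1 wounded (157.8 ± 48.5 TPM). Each neighbouring pair in that order overlapped. For MpCYP74N1 the order ran from Mperf15ko wounded (13.0 ± 1.95 TPM) through Tak-1 wounded (16.4 ± 1.31 TPM) and Mperf15ko control (16.6 ± 1.00 TPM) to Tak-1 control (18.5 ± 1.64 TPM). Here the lowest group was separate from the next in TPM, although not in CPM (counts scaled for library size alone), and the other neighbours overlapped.

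Among genes with a TPM above 0, MpCYP74N1 was above 65.7% ± 2.17 (SD, n = 3) in control Tak-1 and above 56.5% ± 3.93 in wounded Mperf15ko. MpCYP74N2 was above 88.8% ± 1.18 in control Tak-1 and above 94.0% ± 2.28 in wounded Tak-1. The values rest on 343 to 957 reads per library for MpCYP74N1 and on 1078 to 4552 reads for MpCYP74N2. Counting error alone corresponds to a coefficient of variation of 3.23% to 5.40% and of 1.48% to 3.05%.

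The spread between libraries was wider than that. In TPM, the coefficient of variation of MpCYP74N2 was 30.8% in wounded Tak-1 and 31.0% in wounded Mperf15ko, and 13.2% and 15.6% in the respective controls. Its fitted biological coefficient of variation, one value for all groups, was 0.193. That is higher than in 97.9% of the 1587 tested genes of similar level. The value for MpCYP74N1 was 0.112, higher than in 79.5% of 2656 genes of similar level.

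The balance between the genes differed between wounded and control thalli in both genotypes. The ratio of MpCYP74N2 to MpCYP74N1 TPM was 4.53, 3.65 and 3.37 in control Tak-1 and 6.18, 12.6 and 10.2 in wounded Tak-1. In Mperf15ko it was 4.31, 3.07 and 3.38 in controls and 5.88, 5.20 and 11.9 after wounding. All 6 wounded libraries had a higher ratio than all 6 controls, and the ratios of the genotypes overlapped in both conditions.

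MpCYP74N2 made up 79.2% ± 2.48 (SD, n = 3) of the summed CYP74 TPM in control Tak-1 and 89.9% ± 3.43 after wounding. In Mperf15ko the share was 77.9% ± 2.94 and 87.2% ± 4.44. The summed level was 89.2 ± 9.64 TPM in control and 174 ± 48.4 TPM in wounded Tak-1, and 75.9 ± 9.19 and 107.6 ± 27.4 TPM in Mperf15ko. The ratio, the share and the sum are given as descriptions, without a test.

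In Tak-1, MpCYP74N2 rose 2.22-fold after wounding (95% confidence interval 1.56 to 3.14). The log2 fold change was 1.15 (SE 0.23, adjusted p = 0.0016 by edgeR). MpCYP74N1 had a log2 fold change of -0.18 (SE 0.13, interval -0.45 to 0.10, adjusted p = 0.27 by edgeR) and was not called, and this value ranged from -0.27 to -0.078 with 1 library left out. Of all genes tested in this comparison, 46.2% were called and 23.4% were called as higher, and 26.8% had wounded TPM entirely above control TPM as MpCYP74N2 did.

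The rise of MpCYP74N2 in Tak-1 was called with each of the 12 libraries left out in turn. Without Tak-1 wounded replicate 1, the library that stood apart in its most abundant genes, the log2 fold change of MpCYP74N2 was 1.40 (adjusted p = 7.9e-05 by edgeR). MpCYP74N1 became called as lower in Tak-1 under upper quartile scaling, at -0.31. That scaling moved the median of all genes by as much, from -0.045 to -0.18.

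In Mperf15ko, MpCYP74N2 rose 1.59-fold after wounding (interval 1.12 to 2.25) and MpCYP74N1 fell to 0.788 times its control level (interval 0.650 to 0.956). The log2 fold change of MpCYP74N2 was 0.67 (SE 0.23, adjusted p = 0.036 by edgeR). That of MpCYP74N1 was -0.34 (SE 0.13, adjusted p = 0.045 by edgeR). In this comparison 43.6% of genes were called, 23.5% as higher and 20.1% as lower, and 27.0% and 25.1% had TPM that did not overlap in the respective direction. In bulk tissue, fewer cells of a type and less RNA per cell cannot be told apart.

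Both calls in Mperf15ko were close to the threshold. The rise of MpCYP74N2 was no longer called without any 1 of the Tak-1 controls (0.66, 0.65 and 0.65 for replicates 1 to 3), any 1 of the Mperf15ko controls (0.76, 0.54 and 0.67) or Mperf15ko wounded replicate 3 (0.41, adjusted p = 0.17 by edgeR), nor was it called by limma (0.64, adjusted p = 0.066). The fall of MpCYP74N1 was no longer called without Mperf15ko control replicate 2 (-0.38) or 3 (-0.29) or Mperf15ko wounded replicate 3 (-0.22). It was also lost with a minimum average CPM (-0.33), with transcripts as features (-0.37) and in a fit of the 2 groups alone (-0.33). A block for replicate number ended both calls (0.64 for MpCYP74N2 and -0.35 for MpCYP74N1). Mperf15ko wounded replicate 3 held both the highest MpCYP74N2 level and the lowest MpCYP74N1 level of its group.

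Averaged over the genotypes, MpCYP74N2 rose by 0.91 on the log2 scale (SE 0.16, adjusted p = 0.00053 by edgeR), which is 1.87-fold (interval 1.46 to 2.40). MpCYP74N1 fell by 0.26 (SE 0.091, adjusted p = 0.024 by edgeR). In this average 58.2% of all genes were called, 28.7% as higher and 29.5% as lower. The rise of MpCYP74N2 held with each library left out, from 0.79 to 1.03. The fall of MpCYP74N1 was no longer called without Tak-1 control replicate 2 (-0.22), Mperf15ko control replicate 3 (-0.22), Tak-1 wounded replicate 2 (-0.22) or Mperf15ko wounded replicate 3 (-0.18).

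**Figure D2:**
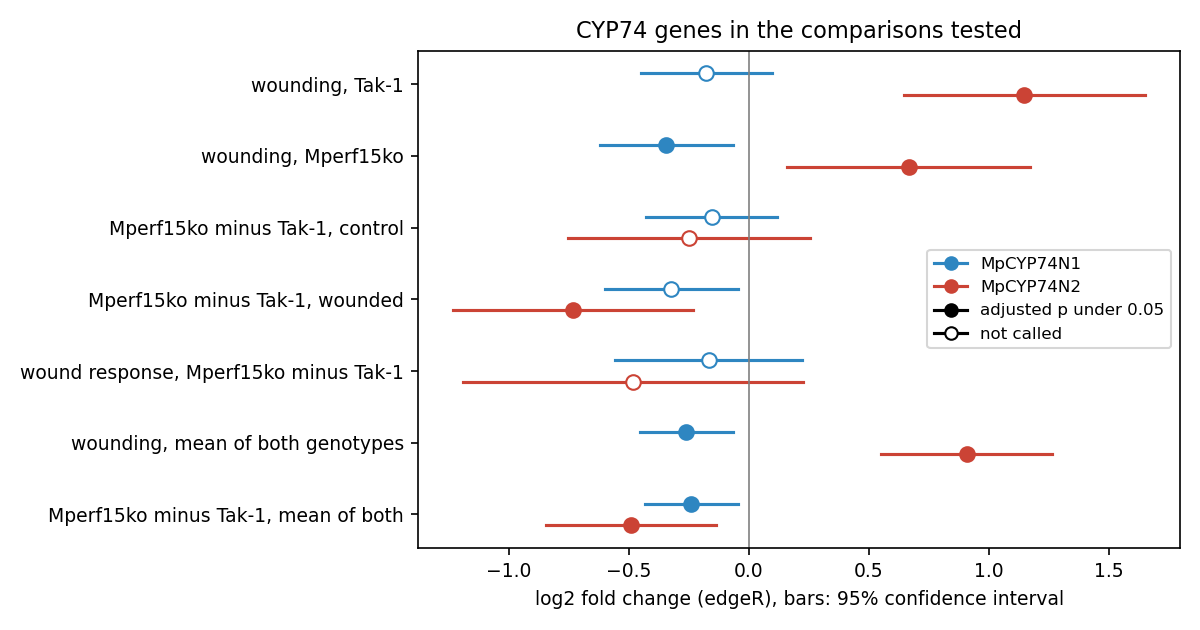
Log2 fold change from edgeR (horizontal axis) of MpCYP74N1 and MpCYP74N2 in the 7 comparisons tested, with 95% confidence intervals as bars and filled points where the adjusted p was under 0.05. The wound responses of MpCYP74N2 lie at 1.15 in Tak-1 and 0.67 in Mperf15ko, those of MpCYP74N1 at -0.18 and -0.34, and the intervals of the difference between the genotypes' responses cross 0 for both genes.

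In intact thalli neither CYP74 gene was called between the genotypes. The log2 difference, Mperf15ko minus Tak-1, was -0.16 for MpCYP74N1 (SE 0.13, interval -0.43 to 0.12, adjusted p = 0.39 by edgeR). For MpCYP74N2 it was -0.25 (SE 0.23, interval -0.75 to 0.25, adjusted p = 0.45 by edgeR). Of all genes 28.1% were called here. With 1 library left out the difference ranged from -0.24 to -0.065 for MpCYP74N1 and from -0.34 to -0.11 for MpCYP74N2. DESeq2 and limma also called 0 of the 2 genes, and 0 had an unadjusted edgeR p under 0.05.

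In wounded thalli MpCYP74N2 was lower in Mperf15ko, at 0.602 times the Tak-1 level (interval 0.426 to 0.851), although the libraries overlapped. The log2 difference was -0.73 (SE 0.23, adjusted p = 0.039 by edgeR). MpCYP74N1 had a log2 difference of -0.32 (SE 0.13, interval -0.60 to -0.044, adjusted p = 0.087 by edgeR) and was not called, although its TPM did not overlap. In this comparison 23.5% of genes were called, 11.7% as lower, and 17.8% had lower TPM in Mperf15ko without overlap.

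The difference of MpCYP74N2 in wounded thalli varied with the libraries that stood at its edges. Without Tak-1 wounded replicate 1 it was -0.98 (adjusted p = 0.0048 by edgeR), and without Mperf15ko wounded replicate 3 it was -0.998 (adjusted p = 0.012 by edgeR). It was no longer called without Tak-1 wounded replicate 2 (-0.61) or 3 (-0.65), Mperf15ko wounded replicate 1 (-0.66) or 2 (-0.63), Tak-1 control replicate 1 (-0.73) or 2 (-0.75) or Mperf15ko control replicate 3 (-0.75). DESeq2 called it (-0.74, adjusted p = 0.0026) and limma did not (-0.72, adjusted p = 0.065). With a block for replicate number, MpCYP74N2 was also not called (-0.74). MpCYP74N1 became called as lower without Mperf15ko wounded replicate 2, at -0.45 (adjusted p = 0.041 by edgeR).

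**Figure D3:**
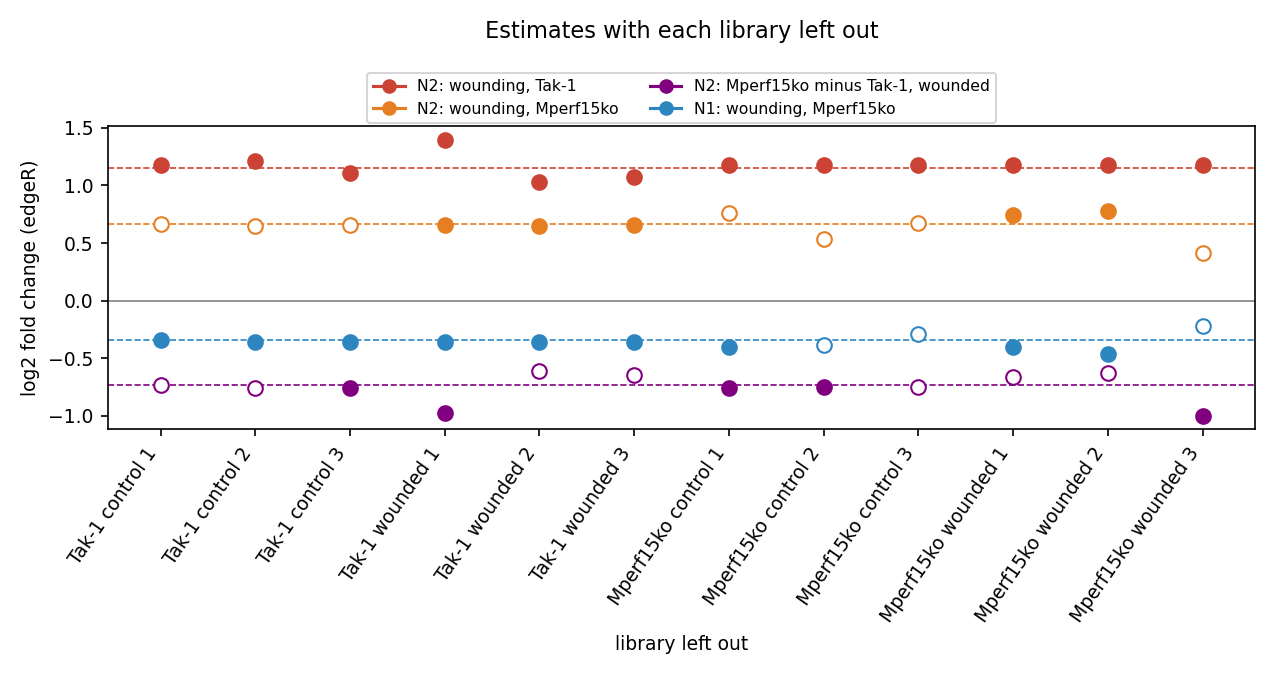
Log2 fold change from edgeR (vertical axis) of 4 results for MpCYP74N1 (N1) and MpCYP74N2 (N2) with each of the 12 libraries left out in turn (horizontal axis), filled where the adjusted p was under 0.05, with dashed lines at the values from all libraries. The rise of MpCYP74N2 in Tak-1 stays between 1.03 and 1.40 and filled throughout, while its rise in Mperf15ko ranges from 0.41 to 0.78 and its difference between wounded genotypes from -0.998 to -0.61, with open points among both.

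Averaged over control and wounded thalli, both genes were lower in Mperf15ko, a comparison in which 41.4% of all genes were called and 20.1% were called as lower. MpCYP74N2 differed by -0.49 (SE 0.16, adjusted p = 0.030 by edgeR) and MpCYP74N1 by -0.24 (SE 0.091, adjusted p = 0.048 by edgeR). The call for MpCYP74N2 was lost without Tak-1 control replicate 1 (-0.47) or 2 (-0.48), Mperf15ko control replicate 2 (-0.43) or 3 (-0.50), Tak-1 wounded replicate 2 (-0.42) or 3 (-0.44), or Mperf15ko wounded replicate 1 (-0.45) or 2 (-0.43). That for MpCYP74N1 was lost without Tak-1 control replicate 2 (-0.21) or 3 (-0.23), Mperf15ko control replicate 1 (-0.22) or 2 (-0.23), Tak-1 wounded replicate 1 (-0.23) or 3 (-0.22), or Mperf15ko wounded replicate 3 (-0.17). A block for replicate number also ended the call of MpCYP74N1 (-0.24).

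A reduced wound response of MpCYP74N2 in Mperf15ko was not shown by the test of the difference itself. The response of Mperf15ko minus that of Tak-1 was -0.48 (SE 0.32, interval -1.19 to 0.23, adjusted p = 0.63 by edgeR). As a ratio this is 0.716, with an interval from 0.438 to 1.17 that includes equal fold responses. Without Tak-1 wounded replicate 1, the library that stood apart in its most abundant genes, the log2 difference was -0.75 (SE 0.25, adjusted p = 0.21 by edgeR). Without Mperf15ko wounded replicate 3 it was -0.77 (SE 0.30, adjusted p = 0.32 by edgeR). For MpCYP74N1 the difference was -0.17 (SE 0.18, interval -0.56 to 0.22, adjusted p = 0.80 by edgeR), with a range of -0.32 to -0.071 as 1 library was left out. Of all genes 1.07% were called in this test, and for the CYP74 genes DESeq2 and limma called 0 of 2, with 0 at an unadjusted edgeR p under 0.05.

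Some of the genes listed as markers of cell types and tissues moved with the same comparisons. Of the 8 found by symbol, 4 were called as higher after wounding in each genotype. These were MpNOP1 and MpSYP13A, listed for air chambers, MpGCAM1 for gemma cups and MpDUO1 for the male germ line. Of all genes, 23.4% in Tak-1 and 23.5% in Mperf15ko were called as higher. MpRBCS and the 3 oil body genes were not called for wounding. The summed level of MpNOP1 and MpSYP13A was 50.4 to 57.9 TPM in control and 91.0 to 101 TPM in wounded Tak-1, and 58.1 to 63.6 and 105 to 111 TPM in Mperf15ko. Most of it was MpSYP13A, with means of 38.0 and 70.7 TPM in control and wounded Tak-1. How specific these genes are to air chambers was not tested. MpGCAM1 was at 0.491 to 1.28 TPM in control and 4.10 to 4.80 TPM in wounded Tak-1, and at 0.277 to 0.506 and 3.56 to 3.91 TPM in Mperf15ko. MpDUO1 stayed under 1.04 TPM in each library.

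The 3 oil body genes together were at 4.29 to 10.2 TPM over all libraries, and their adjusted p in the wound responses and genotype comparisons was at least 0.146 by edgeR, with the smallest unadjusted p at 0.085. MpRBCS, the small subunit of Rubisco, marks photosynthetic thallus and was at 332 to 603 TPM. It was lower in Mperf15ko, at -0.43 in controls and -0.42 in wounded thalli (adjusted p = 0.010 and 0.016 by edgeR). Its counts were fractional in each library, so some of its reads were shared with other transcripts. MpGCAM1 was lower in Mperf15ko controls (-0.93, adjusted p = 0.047 by edgeR), although its TPM overlapped. That call rests on 66, 18 and 26 reads in control Tak-1 and 19, 18 and 10 in control Mperf15ko. The part of these markers in the CYP74 results was not tested.

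Set among the other oxylipin genes, MpCYP74N2 was one of the most abundant. By symbol, 23 genes of synthesis, perception and signalling were in the files, with MpERF15 counted among them, and 16 were lipoxygenases. By mean TPM over all libraries MpCYP74N2 came 2nd at 95.6 TPM and MpCYP74N1 came 9th at 16.1 TPM. Only MpLOX2, at 168 TPM, was above MpCYP74N2. By group, MpCYP74N2 ranked 2nd in control and wounded Tak-1 and in control Mperf15ko, and 3rd in wounded Mperf15ko. MpCYP74N1 ranked 7th and 12th in control and wounded Tak-1, and 9th and 11th in Mperf15ko. No allene oxide cyclase, OPDA reductase or MYC gene was matched by symbol, so those steps are not described here.

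**Figure D4:**
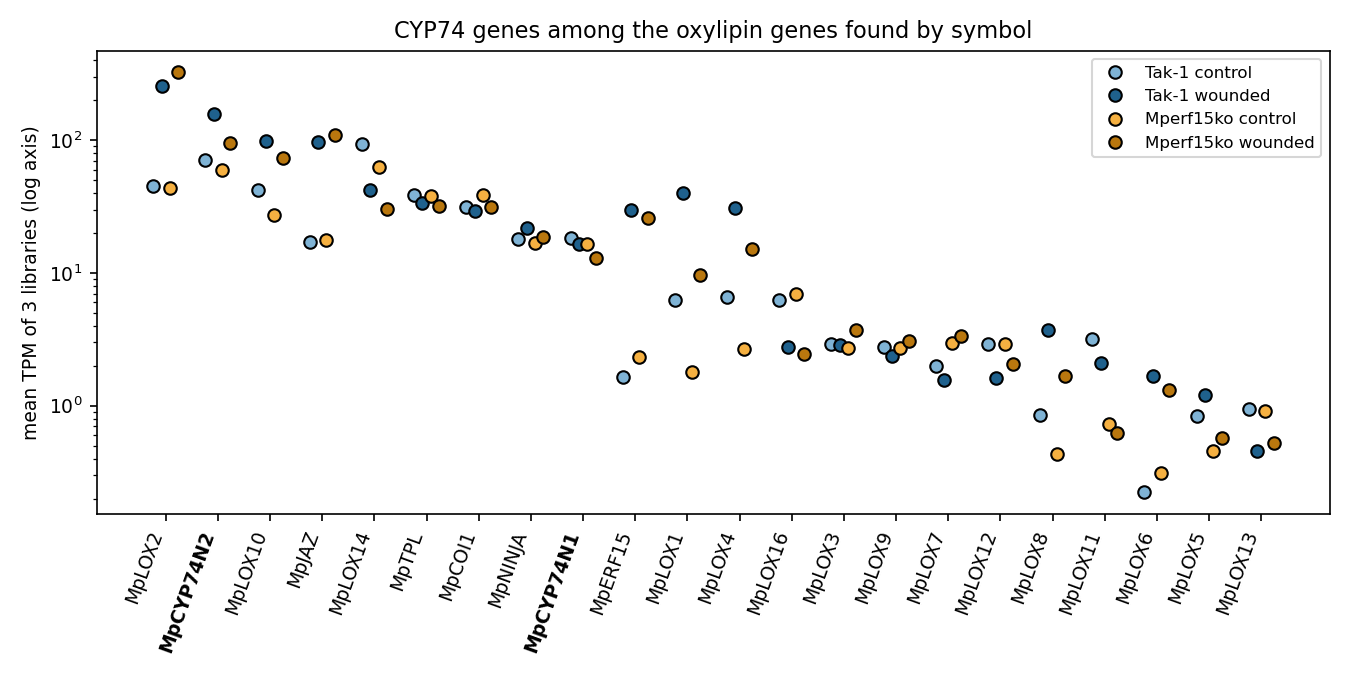
Mean TPM of 3 libraries per group (vertical log axis) of the 22 tested oxylipin genes found by symbol, ordered by their mean over all libraries, with a colour per group. MpCYP74N2, at 59.3 to 157.8 TPM, stands second after MpLOX2, and MpCYP74N1, at 13.0 to 18.5 TPM, stands near MpNINJA and MpERF15.

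Wounding moved the lipoxygenases, which supply the CYP74 substrates, in both directions. In Tak-1, 6 of the 15 tested lipoxygenases rose and 4 fell, and in Mperf15ko 6 rose and 2 fell. These are 66.7% and 53.3% of the 15, beside 46.2% and 43.6% of all genes called. MpLOX2, the most abundant, went from 45.3 ± 2.09 to 257 ± 27.5 TPM in Tak-1, a log2 fold change of 2.49 (adjusted p = 3.8e-10 by edgeR). In Mperf15ko it went from 43.4 ± 5.08 to 328 ± 44.3 TPM, a log2 fold change of 2.91. Its rises were larger in estimate than those of MpCYP74N2, without a test of that difference.

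MpLOX10 rose by 1.22 in Tak-1 and 1.42 in Mperf15ko on the log2 scale, and MpLOX14 fell by 1.15 and 1.03. MpLOX10 was at 41.9 and 98.0 TPM in control and wounded Tak-1, and MpLOX14 at 93.5 and 42.5 TPM. Both of these lipoxygenases had fractional counts in 12 of 12 libraries, so some of their reads were shared with other transcripts, in the same gene or elsewhere. The counts of both CYP74 genes were whole in every library.

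On the perception side, MpJAZ, the repressor that the receptor complex removes, rose by 2.48 in Tak-1 and 2.61 in Mperf15ko on the log2 scale. It went from 17.2 ± 2.42 to 96.4 ± 8.08 TPM in Tak-1. The receptor gene MpCOI1 was at 31.3 ± 3.33 and 29.4 ± 1.08 TPM in control and wounded Tak-1, a log2 fold change of -0.10 that was not called, but became called at -0.23 under upper quartile scaling. In Mperf15ko MpCOI1 fell by 0.30 (adjusted p = 0.017 by edgeR), a call lost without Mperf15ko control replicate 3 (-0.28) or Mperf15ko wounded replicate 1 (-0.19). MpERF15 rose by 4.17 in Tak-1 and by 3.46 in Mperf15ko.

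Of the 20 tested oxylipin genes other than the CYP74 genes, 9 rose and 4 fell in Tak-1, or 65.0% beside 46.2% of all genes, with a median log2 fold change of 0.13 against -0.045 for all genes. Upper quartile scaling gave 8 and 7, and leaving out Tak-1 control replicate 2 gave 9 and 2. In Mperf15ko 8 rose and 4 fell, or 60.0% beside 43.6% of all genes, with a median of 0.25 against -0.015. MpERF15, after which the mutant line is named, is among the 20 and rose in both genotypes.

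Between the genotypes in intact thalli, 7 of the 20 genes were lower in Mperf15ko, all of them lipoxygenases, and 1, MpCOI1, was higher, in all 40.0% beside 28.1% of all genes. The call of MpCOI1 was among those lost when 1 control was left out, with 0 higher and 5 lower without Tak-1 control replicate 3 or without Mperf15ko control replicate 3. In wounded thalli 6 were lower and 2 higher, in all 40.0% beside 23.5% of all genes, and leaving out any 1 library gave 5 to 7 lower and 1 or 2 higher. The medians were -0.050 and -0.19, against -0.0100 and 0.024 for all genes. In the test of the difference between the wound responses edgeR called 0 of the 20, with 1 at an unadjusted p under 0.05, and DESeq2 and limma called 0, beside 1.07% of all genes called by edgeR. These comparisons share libraries with each other and are not independent.

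MpCYP74N2 had its lowest library in wounded Tak-1 in replicate 1 and its highest in wounded Mperf15ko in replicate 3, and both positions were common in these libraries. In wounded Tak-1, replicate 1 was the lowest library for 17 of the 20 genes and the highest for 2, MpLOX6 and MpLOX8. Over all 14246 tested genes it was the lowest for 54.7% and the highest for 25.3%. In wounded Mperf15ko, replicate 3 was the highest for 10 of the 20 and the lowest for 7, which were MpLOX3, MpLOX5, MpLOX6, MpLOX8, MpLOX11, MpLOX12 and MpLOX14. Over all tested genes it was the highest for 49.5% and the lowest for 22.2%. For MpCYP74N1 the lowest library in wounded Tak-1 was replicate 2. The part of these libraries in the results was not tested beyond leaving each of them out.

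The levels of the CYP74 genes did not follow each other over the 12 libraries, with a Pearson correlation of log2 CPM of -0.32, and of -0.54 with the group means removed. The 5 tested genes most like MpCYP74N2 were Mp1g07050 (0.98), Mp5g17380 (0.96), Mp6g00820 (0.96), Mp6g07150 (0.96) and Mp3g18860 (0.96). Mp1g07050 was at 100.4 ± 9.66 TPM in control and 133 ± 20.5 TPM in wounded Tak-1. The 5 genes most like MpCYP74N1 were Mp8g13150 (0.92), Mp4g00390 (0.92), MpPOD90 (Mp5g10730, 0.91), Mp4g20280 (0.90) and Mp6g06140 (0.90). Having been picked for this correlation, these genes share library patterns by selection. These correlations span 4 groups, so they include the differences between groups, and they describe 12 shared libraries.

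Genes next to the CYP74 genes were listed to show whether their neighbourhood moved with them. Beside MpCYP74N1, the gene MpARF-like (Mp3g21340) was listed at 0 reads in every library, and Mp3g21360 was at 13.4 ± 4.40 and 8.40 ± 0.543 TPM in control and wounded Tak-1 and at 7.96 ± 1.46 and 4.88 ± 0.202 TPM in Mperf15ko. Mp3g21360 was lower after wounding averaged over the genotypes, at -0.70 (SE 0.17, adjusted p = 0.0032 by edgeR), and lower in Mperf15ko averaged over control and wounded thalli, at -0.77 (SE 0.17, adjusted p = 0.0031 by edgeR). MpCYP74N1 was called in the same directions in both averages. Of all genes, 29.5% were called as lower in the wound average and 20.1% in the genotype average. A link between these neighbours was not tested. Beside MpCYP74N2, Mp5g16270 was listed at 0 reads in every library.

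On the other side of MpCYP74N2, Mp5g16240 was at 3.53, 4.26 and 3.35 TPM in control Tak-1 and at 9.05, 30.1 and 17.3 TPM after wounding. In Mperf15ko it was at 0.655, 1.33 and 1.08 TPM in controls and at 0.356, 1.44 and 0.837 TPM after wounding. All libraries labelled Mperf15ko lay below all Tak-1 libraries. The share of all genes that separate in this way was not computed. In wounded thalli alone, 17.8% of all genes had lower TPM in Mperf15ko without overlap. Mp5g16240 rose by 2.32 in Tak-1 (SE 0.40, adjusted p = 0.00034 by edgeR) and had a log2 fold change of -0.18 in Mperf15ko (SE 0.58, adjusted p = 0.83 by edgeR). In wounded thalli it was lower in Mperf15ko by 4.36 on the log2 scale (log2 difference -4.36, SE 0.48, adjusted p = 6.7e-05 by edgeR). In Mperf15ko Mp5g16240 rested on 11.0, 19.6 and 16.1 reads in controls and on 4.3, 20.6 and 10.2 after wounding. The sizes of these changes are therefore uncertain.

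The difference between the wound responses of Mp5g16240 was -2.50 (SE 0.70) and missed the threshold by edgeR, with an adjusted p of 0.13. DESeq2 called it (-2.53, adjusted p = 0.0060), as did edgeR without Tak-1 wounded replicate 1 (-2.86, adjusted p = 0.036). Mp5g16250, whose ID lies between it and MpCYP74N2, was chosen after its values were seen. It was at 7.27 ± 2.86 and 24.2 ± 0.622 TPM in control and wounded Tak-1 and at 1.14 ± 0.0985 and 5.90 ± 1.11 TPM in Mperf15ko. Its log2 difference in wounded thalli was -2.02 (SE 0.27, adjusted p = 0.00017 by edgeR).

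MpCYP74N2, unlike both of these neighbours, had overlapping levels between the genotypes in control and in wounded thalli. Mp5g16240 and Mp5g16250 had fractional counts in 12 of 12 libraries, so some of their reads were shared with similar transcripts and their levels are uncertain.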

How the data were processed

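RNA from 12 libraries of Marchantia thalli, 3 in each of 4 groups, was made into libraries with a stranded mRNA kit, per the labels' protocols. Per the file headers, the authors deposited Salmon tables with TPM and an estimated count of reads for each of 24751 transcripts, and the submitters' processing notes name Salmon 0.7.2 and CASAVA without their roles. The sources used here do not give the genome build, annotation, index or options, so no coordinates are printed. Salmon assigns reads shared by similar transcripts in fractions.

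Estimated counts were summed per gene and rounded. TMM scaling, edgeR's filter on low counts (14246 of 19421 genes tested) and 1 mean per group, without a covariate, were used in edgeR 4.0.16 (R 4.3.3, quasi-likelihood test, robust). A gene was called where its p, adjusted by Benjamini-Hochberg over all genes tested, was under 0.05. "Rose", "fell", "higher" and "lower" in tests refer to such calls. Limma 3.58.1 on log2(TPM + 1), DESeq2 1.42.0, other scalings and filters, a replicate block and leaving out each library were alternatives. Levels are compared between genes in TPM. The labels call the replicates independent without saying how they were kept apart. The p-values set each difference against the spread between these samples, which may in part be technical.

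Gene names came from a reference table of the assembly MpTak2_v7.1, which matched 17386 gene IDs (89.5%) and was used for names and neighbours. The members and gene lists were chosen with earlier results of these data known. Of the oxylipin list, the text names MpJAZ, MpCOI1, MpERF15, the 3 lipoxygenases with the highest mean TPM, and others where a library pattern or a count is described. It also names the 5 genes most correlated with each CYP74 gene and their neighbours.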

Additional observations from a re-analysis of the deposited data

How the results depend on the processing

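Over the 14 CYP74 results, 288 alternatives gave 230 values with the same call, 56 that lost a call, 2 that gained one and 0 that changed sign. Results not called in the main fit cannot lose a call, and their values make up part of the 230. No call was lost for the rise of MpCYP74N2 in Tak-1 or averaged over the genotypes, so all 56 fall on the other called results. Upper quartile scaling gave -0.31 for MpCYP74N1 in wounded Tak-1 (gained) and 0.55 for MpCYP74N2 in wounded Mperf15ko (lost). Calls for MpCYP74N2 were lost by limma (0.64 for wounding in Mperf15ko, -0.72 between wounded genotypes, -0.49 for the mean genotype difference), without a filter on low counts (0.63, -0.76 and -0.49) and with transcripts as features (0.65, -0.75 and -0.49). The fit of the 2 groups compared lost the genotype difference in wounded thalli (-0.75). For MpCYP74N1 in wounded Mperf15ko the call was lost with an average CPM of at least 1 (-0.33), transcripts as features (-0.37) and the fit of the 2 groups compared (-0.33), and transcripts as features also lost its mean wound (-0.26) and mean genotype (-0.24) calls. Testing more features, or fitting fewer libraries, is part of several of these settings, and the cause was otherwise not tested.

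The labels name no batch that libraries of the same replicate number share. No pair of groups had all 3 correlations of same-numbered deviations over 0.1 (-0.31 to 0.040 in Tak-1, 0.087 to 0.22 in Mperf15ko). Yet 6 of 6 libraries correlated best with their own number in Mperf15ko, against 1 of 6 in Tak-1. Whether replicate numbers pair the Mperf15ko libraries is therefore not settled. With the replicate block, wounding in Mperf15ko gave 0.64 for MpCYP74N2 and -0.35 for MpCYP74N1, the wounded genotypes -0.74 for MpCYP74N2 and the mean genotype difference -0.24 for MpCYP74N1, each no longer called; the block changed no other CYP74 call. It moved the genes called from 6582 to 6224 for wounding in Tak-1 and from 152 to 130 for the difference between responses, which DESeq2 put at 459. Of all genes, 4010 were called between intact genotypes and 2565 without Mperf15ko control replicate 3. Between wounded genotypes 3352 were called, against 1832 and 2210 without Tak-1 wounded replicates 2 and 3 and 2096 without Mperf15ko wounded replicate 2. The 152 became 61 and 65 without Tak-1 wounded replicates 2 and 3, 101 without Tak-1 control replicate 2, and 324 and 73 without Mperf15ko control replicates 1 and 3. Mp5g16240 was called in the difference between responses with the block (-2.42).

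With 1 library left out, MpCYP74N1 ranged from -0.47 to -0.22 for wounding in Mperf15ko, -0.45 to -0.21 between wounded genotypes, -0.31 to -0.18 for mean wounding and -0.29 to -0.17 for the mean genotype difference. MpCYP74N2 ranged from 0.41 to 0.78 for wounding in Mperf15ko, -0.998 to -0.61 between wounded genotypes and -0.61 to -0.42 for the mean genotype difference. Of 478 alternatives for the other named genes, 469 kept their direction and call, 3 lost a call, 4 gained one and 2 changed sign. Mp5g16240 for wounding in Mperf15ko ranged from -0.85 to 0.17, with a changed sign without Mperf15ko control replicate 2 (0.045) and without Mperf15ko wounded replicate 1 (0.17), neither called.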
